A study of Rattus norvegicus with 8 samples.

Results

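The gp130 cytokine pathway was examined in the hypothalamus of rats injected with retinoic acid (RA), through 10 named genes taken by symbol from 15159 genes named on the array. They are 3 ligand genes (*Il6*, *Lif* and *Cntf*), 4 receptor genes (*Il6r*, *Lifr*, *Osmr* and *Il6st*), the kinase gene *Jak2*, the transcription factor gene *Stat3* and the inhibitor gene *Socs3*. All 10 had a probe, 1 per gene, and the probes of *Stat3*, *Lifr* and *Il6st* had only 1 spot per array. Cytokines of this family signal through the shared receptor subunit gp130, the product of *Il6st*, joined by a receptor of their own such as that for IL-6, LIF or oncostatin M. The assembled receptor activates JAK kinases bound to it, which phosphorylate STAT3, and STAT3 then enters the nucleus and switches on genes that include its own inhibitor *Socs3*. In the brain the pathway is known for reactive astrocytes, and in the hypothalamus STAT3 and SOCS3 also lie downstream of the leptin receptor.

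The rats were male F344 animals, all held in short days (SD) and all fitted with a cannula to the third ventricle, and 4 received all-trans RA while 4 received vehicle. Hypothalamic blocks that included the arcuate nuclei were taken a day later, and RA and vehicle RNA were hybridised against each other with dye-swap on 8 two-colour Agilent arrays. The labels give the RA solution as 1e-05 M and the vehicle as saline, whereas the paper's methods give a higher concentration for these rats and DMSO in saline as vehicle. The question asked of the arrays was which genes respond to RA in this tissue. RA was in Cy5 on arrays 1, 3, 6 and 8 and in Cy3 on arrays 2, 4, 5 and 7. The arrays share their animals across the dye-swap, but which arrays carry the same RNA is not given, so that p was taken as the largest over all 24 ways of pairing arrays of opposite dye.

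Of the probes, 57.4% to 74.6% per array gave a signal well above background for RA and 61.2% to 74.5% for vehicle. On every array the share was higher in the Cy5 channel. The log2 ratios of RA over vehicle spread more widely on the second row of the slide (arrays 5 to 8, SD over genes 0.286 to 0.326) than on the first (arrays 1 to 4, 0.184 to 0.198). The row was read from the deposited name of each array, and the labels do not give it. The defining neuropeptide genes of the arcuate nucleus were above background on all 8 arrays (6 of 6), as tissue labelled hypothalamus should have them. Their median ratio was -0.76 on arrays 5 and 8 and between -0.11 and 0.04 on the others. Choroid plexus marker genes had median ratios of -1.51 and -1.59 on arrays 6 and 7 against 0.15 to 0.57 on the others. Red blood cell markers had median ratios of 0.93 and 0.76 on arrays 3 and 4 against -0.905 and -0.70 on arrays 5 and 8. Arrays 5 and 8, 6 and 7, and 3 and 4, each of opposite dye, thus moved alike in these lists, so that the members of such a couple are not read as separate animals, although no pairing was taken from it. Each of these couples lies within the same slide row, so slide row and animal cannot be told apart. In bulk samples such as these blocks, fewer cells of a type and less RNA per cell cannot be told apart.

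The regions before the genes are shown for *Stat3* and *Jak2*, the members that passed the threshold, for *Socs3*, which varied with *Stat3* over the arrays, and for *Cntf*, the member holding the hexamer of RA receptor sites. A promoter of 300 bases, from 250 before the transcription start to 50 after it, was held for 9 of the 10 members in RefSeq (build GRCr8, 5′ to 3′ on the gene's strand). The motifs searched on both strands, with matches set in capitals, were the STAT motif TTCNNNGAA, AGGTCA, the core hexamer of the sites that RA receptors bind, the cAMP response motif TGACGTCA, the AP-1 motif TGANTCA and the GC box GGGCGG.
*Stat3*, chr10:86363310-86363609, minus strand.
Stat3 promoter: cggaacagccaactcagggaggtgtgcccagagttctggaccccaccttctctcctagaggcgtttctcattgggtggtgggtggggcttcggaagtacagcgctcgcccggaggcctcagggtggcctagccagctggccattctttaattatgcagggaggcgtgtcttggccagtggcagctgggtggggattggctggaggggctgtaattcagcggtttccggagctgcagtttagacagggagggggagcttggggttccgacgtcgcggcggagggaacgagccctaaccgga
*Jak2*, chr1:236408655-236408954, plus strand.
Jak2 promoter: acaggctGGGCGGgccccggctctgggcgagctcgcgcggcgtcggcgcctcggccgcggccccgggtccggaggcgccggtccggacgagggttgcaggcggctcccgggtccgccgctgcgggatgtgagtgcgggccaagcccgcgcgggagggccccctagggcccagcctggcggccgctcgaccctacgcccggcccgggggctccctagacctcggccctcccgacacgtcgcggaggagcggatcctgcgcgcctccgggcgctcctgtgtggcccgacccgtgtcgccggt
*Socs3*, chr10:103694719-103695018, minus strand.
Socs3 promoter: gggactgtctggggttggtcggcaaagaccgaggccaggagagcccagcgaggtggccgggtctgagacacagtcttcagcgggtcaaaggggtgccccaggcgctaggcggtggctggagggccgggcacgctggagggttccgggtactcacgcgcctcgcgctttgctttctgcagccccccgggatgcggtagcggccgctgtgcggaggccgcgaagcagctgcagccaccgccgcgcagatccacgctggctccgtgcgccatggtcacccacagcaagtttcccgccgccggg
*Cntf*, chr1:219314486-219314785, minus strand.
Cntf promoter: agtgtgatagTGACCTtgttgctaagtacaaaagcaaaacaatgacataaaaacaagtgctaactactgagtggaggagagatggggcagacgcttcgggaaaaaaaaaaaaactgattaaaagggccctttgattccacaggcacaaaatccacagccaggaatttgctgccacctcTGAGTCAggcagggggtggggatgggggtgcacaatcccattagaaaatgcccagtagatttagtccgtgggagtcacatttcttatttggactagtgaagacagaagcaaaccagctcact
None of the 5 motifs occurred in the *Stat3* or *Socs3* window, so neither is printed with capitals. *Jak2* had a GC box starting 243 bases before the start, and G or C made up 80.3% of its window against a median of 51.7% over all promoters. The *Cntf* window had that hexamer on its opposite strand 240 bases before the start and an AP-1 match 72 bases before it. The STAT motif was found in 0 of the 9 windows and in 8.87% of all 33469 promoters, and the hexamer AGGTCA in 1 of 9 and in 16.2%. A GC box lay in 4 members (*Il6r*, *Lifr*, *Osmr* and *Jak2*) and in 33.1% of all promoters. The AP-1 motif lay in *Cntf* and *Osmr* (7.33% of all), and the cAMP response motif in *Il6* alone among the members (1.83% of all). These are matches of letters, and a window without one says only that the letters are not in it. The windows follow the starts held in RefSeq, and whether those starts are used in this tissue was not tested. Sequence outside the windows was not searched, so a gene without a match here, such as *Socs3*, may hold one elsewhere.

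After RA, *Stat3* and *Jak2* mRNA rose, while none of the 3 ligand genes, the 4 receptor genes or *Socs3* passed the test. The threshold was that of the methods, an unadjusted p under 0.01 in limma, and 2 of the 10 members passed it, both higher after RA. Over all named genes 3.52% passed as higher and 0.792% as lower. The members were chosen with earlier results of these data known, so the count of members is a description. After adjustment over all probes no member and no other probe was under 0.05 with the largest p over the pairings (0 in limma, lowest adjusted p 0.222, with 3292 probes at an unadjusted p under 0.05). In other limma fits 304 probes were under it with the pairs as a random block and 934 with 8 independent arrays, *Stat3* among them in both. The fit of 8 independent arrays takes dye-swap repeats as separate animals and so overstates the number of animals. A log2 ratio above 0 on all 8 arrays was found for 3 members (*Il6r*, *Stat3* and *Jak2*) and for 4.07% of all named genes. With plain background subtraction or with Agilent's own log ratio 0 of the 10 members passed in limma, the log2 fold change of *Stat3* being 0.53 and 0.51 (an unadjusted p of 0.0105 and of 0.0189). The median log2 fold change was 0.07 over the members and -0.0047 over all named genes.

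**Figure D1:**
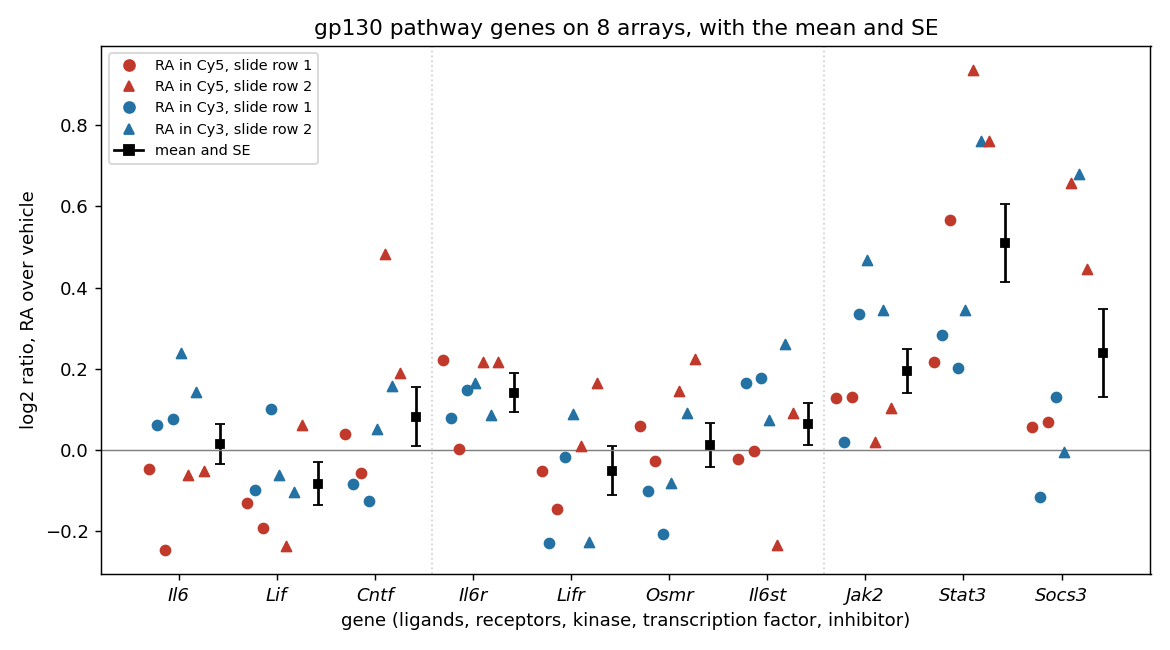
Log2 ratio of RA over vehicle (vertical axis) of the 10 genes, grouped by dotted lines into ligands, receptors and signalling genes, with 1 point per array (colour, dye of RA; shape, slide row) and the mean with its standard error as a black square. *Stat3*, *Jak2* and *Il6r* lie above 0 on all 8 arrays, and *Socs3* lies above 0.4 on arrays 6, 7 and 8 and near 0 on the others.

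*Stat3*, which encodes the transcription factor at the end of the pathway, had a log2 intensity of 10.21 to 11.12 in the vehicle channel (median 10.40) and of 10.50 to 11.46 in the RA channel (median 11.00). Its log2 ratios on arrays 1 to 8 were 0.22, 0.28, 0.57, 0.20, 0.34, 0.94, 0.76 and 0.76. The levels of the channels overlapped between arrays, but the RA channel was the higher on each of the 8 arrays, most of all on arrays 6, 7 and 8. The mean log2 fold change was 0.51 with a standard error of 0.10, a 1.42-fold rise with a 95% interval of 1.22 to 1.66. The unadjusted p from limma was 0.00106, the largest over the pairings, which gave p down to 5.57e-07. All 24 pairings were under the threshold, and the adjusted p in limma was 0.227. The adjusted p in limma was 0.0273 with the pairs as a random block and 0.0139 with 8 independent arrays. The latter fit takes dye-swap repeats as separate animals, so its p is too small for this design. An exact permutation test that flips the signs of 4 pair means cannot give a two-sided p under 0.125, so only limma's p is given. *Stat3* held rank 106 of the named genes by p. The ratio was 0.62 ± 0.31 (SD, n = 4) where Cy5 marked RA and 0.40 ± 0.25 (SD, n = 4) where Cy3 did. It averaged 0.32 on the first slide row and 0.70 on the second. Whether the rows differ was not tested, and slide row cannot be told apart from animals here. Without arrays 6 and 7, on which choroid plexus genes were low, the log2 fold change was 0.40 (unadjusted p of 0.00166 in limma).

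*Jak2*, which encodes a kinase bound to gp130 receptors, had log2 intensities of 8.14 to 8.58 in the vehicle channel (median 8.33) and of 8.38 to 9.05 in the RA channel (median 8.48). Its log2 ratios on arrays 1 to 8 were 0.13, 0.02, 0.13, 0.34, 0.47, 0.02, 0.34 and 0.10. The RA channel was again the higher on each array, but on arrays 2 and 6 by almost nothing, and the highest ratios were on arrays 4, 5 and 7, all with RA in Cy3. The log2 fold change was 0.19 with a standard error of 0.05 (95% interval 0.07 to 0.32), a 1.14-fold rise. The unadjusted p from limma was 0.00745 and the adjusted p 0.295. All 24 pairings were under the threshold (lowest p in limma 0.00234). The mean ratio of *Jak2* was 0.10 ± 0.05 (SD, n = 4) for RA in Cy5 and 0.29 ± 0.19 (SD, n = 4) for RA in Cy3. Of the 16 fits that left out 1 array of each dye order, *Jak2* stayed under the threshold in the 4 without array 2 and not in the 12 without array 4, 5 or 7, with log2 fold changes of 0.16 to 0.25. *Stat3* stayed under it in 16 of 16, with log2 fold changes of 0.40 to 0.61.

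*Socs3*, which encodes the inhibitor that STAT3 induces and that binds gp130 and JAK kinases, had log2 intensities of 7.06 to 7.59 in the vehicle channel (median 7.23) and of 7.12 to 7.91 in the RA channel (median 7.48). On arrays 6, 7 and 8 its log2 ratios were 0.66, 0.68 and 0.45. On the other 5 arrays the ratio lay between -0.12 and 0.13, so that 5 arrays lay close to 0 and 3 lay well above it. These arrays are not separate animals. Of the couples that moved alike in the marker lists, arrays 6 and 7 were both high. In the couple of arrays 5 and 8, array 8 was high whereas array 5 was at -0.0038. The log2 fold change of *Socs3* was 0.24 with a 95% interval of -0.01 to 0.49, and its unadjusted p in limma was 0.0598 (adjusted p 0.488), with 11 of 24 pairings under the threshold. The mean was 0.03 on the first slide row and 0.44 on the second. With each row alone the unadjusted p in limma was 0.629 and 0.00960. The second row holds the 3 high arrays, so its p is no separate support. Without arrays 6 and 7 the log2 fold change was 0.10 (unadjusted p of 0.202 in limma).

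**Figure D2:**
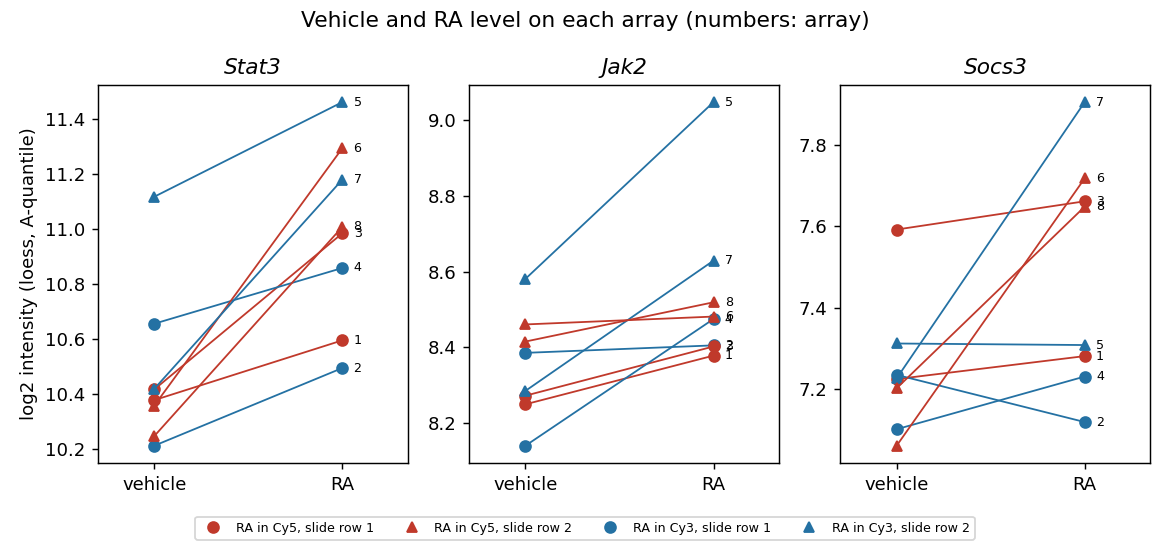
Log2 intensity after normalisation (vertical axis) of *Stat3*, *Jak2* and *Socs3* in the vehicle and RA channels, with a line for each array, numbered at its right end (colour, dye of RA; shape, slide row). Every line rises for *Stat3* and *Jak2*, whereas for *Socs3* 3 lines of the second row rise steeply and the others stay close to level.

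Among the receptor genes, *Il6r*, which encodes the receptor chain specific for IL-6, had the most even ratios. Its log2 intensity was 7.18 to 7.52 in the vehicle channel and 7.31 to 7.74 in the RA channel. The log2 ratios were 0.22, 0.08, 0.00, 0.15, 0.16, 0.22, 0.09 and 0.22 on arrays 1 to 8, all above 0 although array 3 was at 0.0025. The log2 fold change of 0.14 (95% interval 0.03 to 0.25) had an unadjusted p of 0.0193 in limma (adjusted p 0.353). It was past the threshold in 6 of 24 pairings but not in the one with the largest p. *Il6st*, the gene of gp130 itself, had log2 intensities of 10.64 to 10.98 in the vehicle channel and of 10.67 to 11.06 in the RA channel. Its ratio was above 0 on 5 arrays, lowest on array 6 (-0.23) and highest on array 7 (0.26), with a log2 fold change of 0.06 (95% interval -0.06 to 0.18, unadjusted p of 0.248 and adjusted p = 0.742 in limma). *Lifr*, the gene of the LIF receptor chain, had a log2 fold change of -0.05 (95% interval -0.19 to 0.09, unadjusted p of 0.429 and adjusted p = 0.842 in limma). Its signal was well above background on 5 arrays after RA and on 7 after vehicle, a gap that follows the dye. The RA channel fell short on arrays 2, 4 and 7, and the vehicle channel on array 1, each time in Cy3. *Osmr*, the gene of the oncostatin M receptor chain, was well above background on only 2 arrays in each channel. Its log2 fold change of 0.01 (95% interval -0.11 to 0.14, unadjusted p of 0.813 and adjusted p = 0.964 in limma) is therefore a value close to background.

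The ligand genes showed no change that passed the test. *Il6* was not well above background in either channel on any of the 8 arrays, so its log2 ratios are not read as a change. *Lif*, which encodes leukaemia inhibitory factor, was above background on 7 arrays in the RA channel and on 8 in the vehicle channel. Its log2 intensity was 6.76 to 7.49 after vehicle and 6.81 to 7.43 after RA. The ratio was below 0 on 6 of 8 arrays, between -0.24 and 0.10, with a log2 fold change of -0.08 (95% interval -0.21 to 0.04, unadjusted p of 0.167 and adjusted p = 0.660 in limma). *Cntf*, which encodes ciliary neurotrophic factor, a product of glia, had a log2 intensity of 8.67 to 8.88 after vehicle and 8.63 to 9.15 after RA. It had ratios of 0.04, -0.08, -0.06, -0.12, 0.05, 0.48, 0.16 and 0.19 on arrays 1 to 8. They were above 0 on all of the second row and on 1 array of the first. The log2 fold change of *Cntf* was 0.08 (95% interval -0.09 to 0.25, unadjusted p of 0.290 and adjusted p = 0.769 in limma).

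Across the 8 arrays the ratios of *Stat3* and *Socs3* ran together (Pearson r = 0.872), as did those of *Cntf* with *Stat3* (0.834) and with *Socs3* (0.805). *Stat3* and *Jak2* did not (r = -0.277). These coefficients describe 8 arrays that share animals across the dye-swap, and arrays 6, 7 and 8 carry the high end of the first 3. *Osmr*, whose values are close to background, also ran with *Stat3* (r = 0.783) and with *Socs3* (0.711). Coefficients of this size were thus also found for a gene with little signal. Among 10041 named genes bright enough on all arrays, those most like *Stat3* in their pattern of ratios were *Masp1* (r = 0.984), *Vac14* (0.982) and *Actb* (0.974), with log2 fold changes of -0.03, 0.07 and 0.37. Those most like *Jak2* were *Eif1ax* (0.965), *Pdia5* (0.945) and *Sppl2a* (0.942), with log2 fold changes of 0.12, 0.15 and 0.03.

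The rest of the pathway was taken from lists of 46 further genes, of which 41 had a named probe (*Clcf1*, *Il27*, *Il27ra*, *Tyk2* and *Socs7* were not matched). Of the 41, 15 passed the threshold, all higher after RA, against the 3.52% of all named genes. The lists were chosen with earlier results of these data known, so these counts are descriptions and not a test of the lists. Whether STAT3 acted on the target genes here was not tested. The 15 were unevenly placed: 3 among 21 further components and 12 among 20 genes known as STAT3 targets. The median log2 fold change was 0.0015 over the components and 0.64 over the targets. With the largest p over the pairings, no gene of the 41 had an adjusted p in limma below 0.222.

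Of the components, no ligand (0 of 5), receptor (0 of 3), or JAK or STAT gene (0 of 4) passed in limma, where 2 of these 12 had an unadjusted p under 0.05. Among them was *Stat5a*, a STAT gene, with a log2 fold change of 0.15 (unadjusted p of 0.0412 in limma). *Jak1*, the kinase that pairs with JAK2 on gp130, was at 0.11 (unadjusted p of 0.0801 in limma). Of the other ligand genes, *Ebi3*, which encodes a subunit of IL-27, was at 0.09 (unadjusted p of 0.280 in limma). *Il11ra1*, the IL-11 receptor, was at -0.13 (unadjusted p of 0.0605 in limma) and *Cntfr*, the CNTF receptor, at -0.07 (unadjusted p of 0.312 in limma). *Lepr*, the leptin receptor, was well above background on 1 array in the RA channel and on 0 in the vehicle channel. The components that rose were all protein tyrosine phosphatases. *Ptpn6*, which encodes SHP-1, a phosphatase of blood-derived cells and microglia, rose by a log2 fold change of 1.01 (SE 0.18, unadjusted p of 7.24e-04 in limma). *Ptpn1*, which encodes PTP1B, a phosphatase that acts on JAK2, rose by 0.56 (SE 0.10, unadjusted p of 6.90e-04 in limma), and its ratios lay above 0 on 8 of 8 arrays. *Ptpn2*, which encodes TCPTP, a phosphatase that acts on STAT proteins, rose by 0.25 (SE 0.05, unadjusted p of 0.00232 in limma) and lay above 0 on 7 arrays. *Ptpn11*, the SHP-2 gene, was at -0.11 (unadjusted p of 0.160 in limma), and the STAT inhibitor *Pias3* at 0.0044 (unadjusted p of 0.941 in limma). *Socs1* was above background on only 3 arrays in each channel.

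Among the STAT3 targets *Timp1*, a secreted inhibitor of metalloproteinases, rose the most, with log2 ratios of 2.08, 1.81, 1.02, 0.94, 2.58, 3.19, 3.05 and 2.87 on arrays 1 to 8. All were above 0, and the second row was above the first without overlap. The log2 fold change was 2.19 (SE 0.31, unadjusted p of 1.48e-04 in limma). *Gfap*, the intermediate filament of reactive astrocytes, rose by 1.40 (SE 0.20, unadjusted p of 1.77e-04 in limma) and *Cebpd*, a transcription factor of the acute phase, by 1.56 (SE 0.24, unadjusted p of 3.00e-04 in limma). *Bcl3*, a regulator of NF-kB, rose by 1.31, the C/EBP factor *Cebpb* by 0.94, the protease inhibitor *A2m* by 0.77, the adhesion molecule *Icam1* by 0.65, *Myc* by 0.63, the cyclin *Ccnd1* by 0.52 and *Fos* by 0.30, the last on 7 of 8 arrays. *Serpina3n*, an acute-phase protease inhibitor, rose by 1.33 and was above background on 6 vehicle arrays. *Lcn2*, an iron-carrier binding protein, rose by 1.66 and was above background on 8 RA and 4 vehicle arrays, so its vehicle level is in part a background value. *Irf1*, at 0.77, and *Junb*, at 0.45, did not pass (an unadjusted p of 0.0212 and of 0.0127 in limma), nor did the survival gene *Bcl2l1* at -0.02 and *Nnmt* at -0.17 (an unadjusted p of 0.703 and of 0.0297 in limma). The median ratio of the 20 targets was 0.13 to 0.40 on arrays 1 to 4 and 0.79 to 1.05 on arrays 5 to 8.

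**Figure D3:**
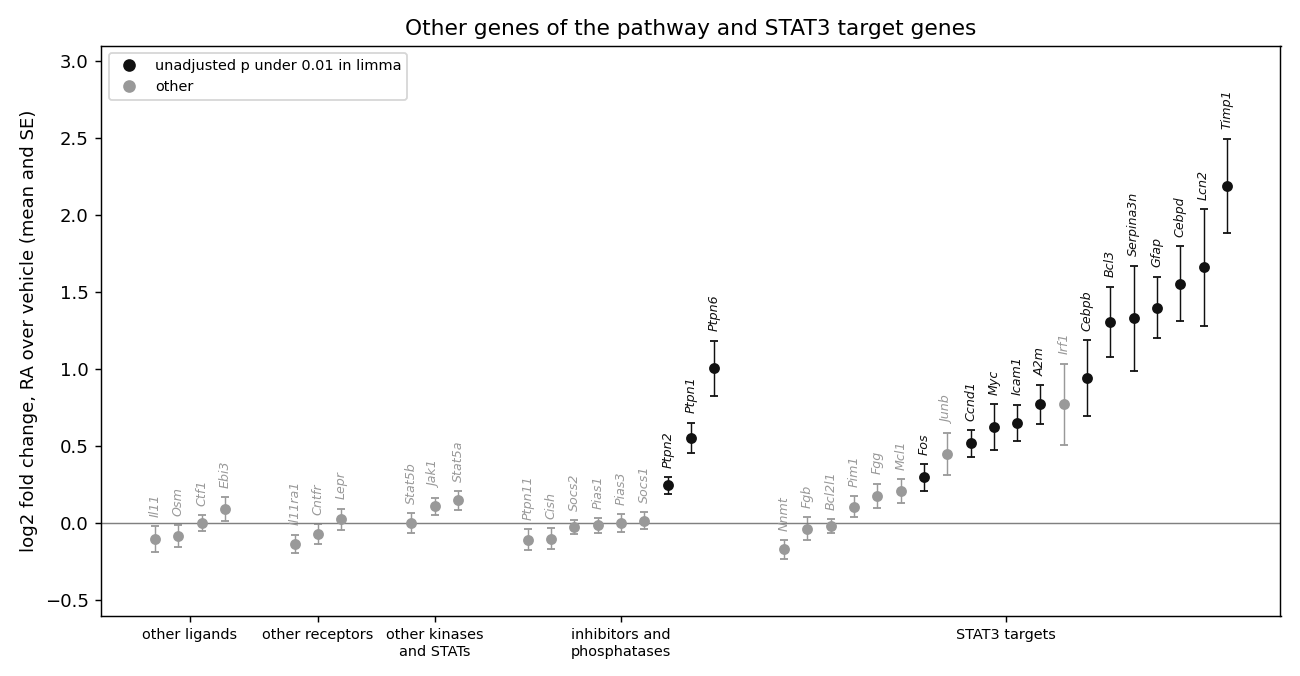
Log2 fold change of RA over vehicle (vertical axis, mean and standard error over pairs of arrays) of the further genes, ordered by size within each list, with genes at an unadjusted p under 0.01 in black. The phosphatase genes *Ptpn1*, *Ptpn2* and *Ptpn6* and most STAT3 target genes stand above 0, and the other ligands, receptors, kinases and STATs lie near 0. *Fgb*, at the low end of the targets, was not well above background.

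Markers of immune cells also moved, some of them more on arrays 5 to 8, as the targets did. Over all named genes, the share to set beside each list, 3.52% passed as higher and 0.792% as lower. Of 6 microglia markers 2 rose (*Aif1* and *Itgam*) and 1 fell (*Tmem119*). The others did not pass, with log2 fold changes of 0.37 for *Csf1r*, 0.08 for *Cx3cr1* and -0.15 for *P2ry12*. The summed intensity of the microglia list, on the linear scale, was 9810 to 13700 in the vehicle channel and 12100 to 20800 in the RA channel. Of 6 monocyte and macrophage markers 2 rose (*Lyz2* and *Cd68*), *Cd68* with ratios below 0 on arrays 3 and 4 (-0.24 and -0.14). The summed intensity was 5750 to 11400 after vehicle and 9310 to 42300 after RA. It follows mainly *Lyz2*, at a mean log2 intensity of 13.40 against 9.23 for *Cd68*, the next brightest. *Ccr2*, *Mrc1* and *Ly6c* were well above background on 1, 2 and 5 RA arrays and on 0, 2 and 1 vehicle arrays. The list's median ratio was higher on arrays 5 to 8 (0.52 to 1.04) than on arrays 1 to 4 (0.07 to 0.27). Of 5 neutrophil markers 2 rose (*S100a9* and *Csf3r*) and *Elane* was not above background, and the summed intensity was 499 to 695 after vehicle and 605 to 1970 after RA. Of 6 astrocyte markers, a list without *Gfap*, 0 rose and *Gja1* fell, at summed intensities of 146000 to 184000 after vehicle and 135000 to 178000 after RA. The part of these cell types in the rise of *Stat3*, of the phosphatase genes or of the target genes was not tested.

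**Figure D4:**
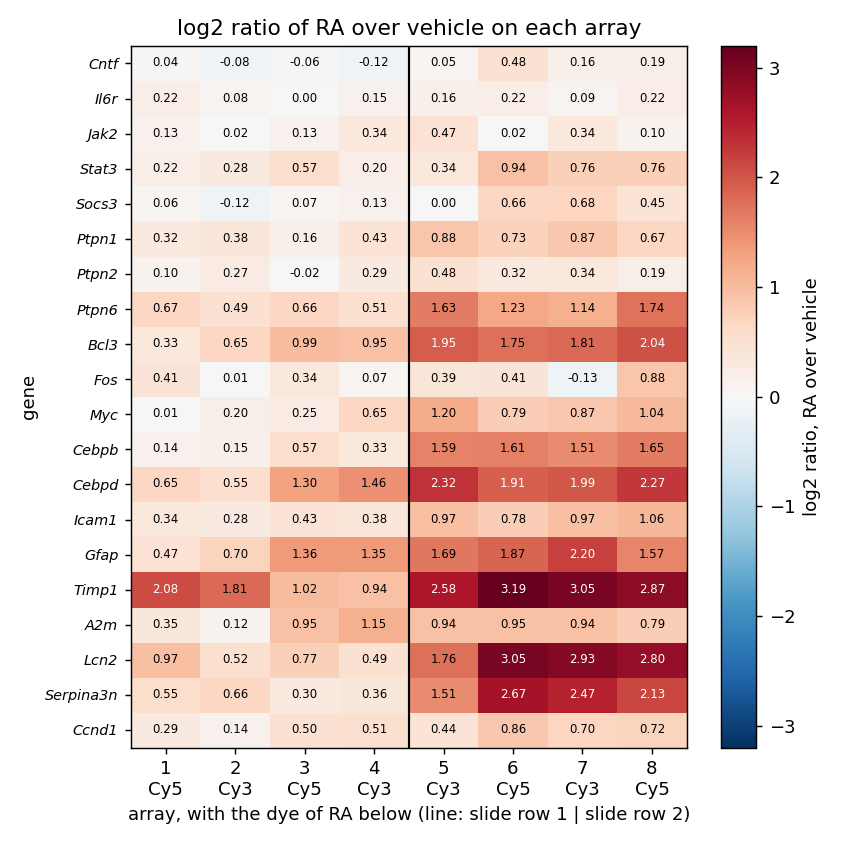
Log2 ratio of RA over vehicle on each array (columns, with the dye of RA) for 5 members and for the 15 further genes at an unadjusted p under 0.01 (rows), with the value in each cell and a line between the slide rows. Most target genes have their higher ratios on arrays 5 to 8, and *Stat3* and *Socs3* have theirs on arrays 6, 7 and 8.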

How the data were processed

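RNA of 4 RA-injected and 4 vehicle-injected rats was measured on 8 two-colour arrays. The authors deposited the scanner output, with the linear median intensity of every spot in Cy3 and Cy5, outlier and above-background flags, and Agilent's log10 ratio of Cy5 over Cy3. A table of normalised log2 ratios was also deposited, with column medians of -0.00295 to 0.0134. The sample titles name RA against saline, and its columns correlated with the RA over vehicle ratios computed here at 0.932 to 0.980 over probes. Per the paper's methods the authors normalised by loess, averaged probes of the same oligo and fitted limma with the dye-swap as a block. Their background correction is not given in the sources used here.

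Here, R 4.3.3 and limma 3.58.1 were used. Background was corrected by normexp (offset 50), control and outlier spots were left out, loess was applied within arrays, spots of a probe were averaged and ratios were turned to RA over vehicle. Levels of each channel were compared between arrays after Aquantile scaling, which does not alter the ratios. Well above background means that at least 0.5 of a probe's spots were marked so on that array. Arrays of opposite dye were averaged into 4 pairs, and limma's moderated test of the mean was run for every probe, keeping the largest p over 24 pairings, with its standard error and 95% interval. Benjamini-Hochberg adjustment covered 30367 probes. P-values measure the spread between these arrays, whose number limits the precision. Symbols came from transcript accessions matched without versions to RefSeq GRCr8 (18006 of 30367 probes), with the brightest probe per gene.

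The procedure was tested on simulated data with known changes. The text names all 10 members, the further pathway and target genes under the threshold (up to 12 per list), up to 4 of the brightest others per list, and the 3 genes most correlated with each called member. *Lepr*, *Socs1* and *Fgb* are named beyond that rule for their low signal, some genes the rule would name are not reported here, and the markers named were chosen after their values were seen. The members and lists were chosen with earlier results of these data known, so that counts over them are descriptions. Alternatives covered the background correction, Agilent's log ratio, the deposited values, scaling, dim probes, outlier spots, the replicate structure, each dye order, the variance trend, slide rows, 16 couples of arrays left out and the mean of all probes of a gene.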

Additional observations from a re-analysis of the deposited data

Results flagged for a closer look

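Of 20 groups of 4 arrays (10 members in each dye order), 2 held an array far from the other 3, and chance alone gives about 1 in 20. Both were array 3, with RA in Cy5. The log2 ratio of *Il6* there was -0.25, below the other arrays of its dye order, for a gene that was not above background on any array. The log2 ratio of *Il6r* there was 0.0025, whereas the other 3 arrays of that dye order had 0.22 each.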

How the results depend on the processing

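The count of probes under the threshold, 988, was 244 with plain background subtraction, 330 with Agilent's log ratio, 1720 with the pairs as a random block, 2480 with 8 independent arrays, 3142 in the most favourable pairing, 3109 with slide row as a block, 2161 on the arrays with RA in Cy5 alone and 2317 on those with RA in Cy3 alone. It was 455 to 1111 when a couple of arrays was left out, lowest without arrays 8 and 5. The count of members, 2, was 0 with plain subtraction and with Agilent's log ratio (for *Stat3*, an unadjusted p of 0.0105 and of 0.0189 in limma), 4 in the most favourable pairing and with slide row as a block, 1 with the arrays with RA in Cy5 alone, with a variance trend and on slide row 1, and 1 to 2 with a couple left out. The most favourable pairing and the fits of 8 independent arrays and with slide row as a block do not keep the largest p over the pairings. Their higher counts are therefore less strict than those of the main fit. The count of further pathway genes, 15, was 6 with Agilent's log ratio. It was 10 to 16 with a couple left out, lowest without arrays 8 and 5. *Stat3* had p under 0.01 in 32 of 34 alternatives, with log2 fold changes of 0.32 to 0.70, and *Jak2* in 16 of 34, with 0.10 to 0.29. *Il6r* and *Socs3* passed in 3 of 34 each. *Stat3*, *Jak2*, *Il6r*, *Socs3* and *Lif* kept their direction in all 34. Values near 0 changed sign. *Il6*, whose ratios are of signals not above background and carry no direction, was at -0.17 with plain subtraction, -0.10 with RA in Cy5 alone, -0.0385 on slide row 1 and -0.0132 to 0.0496 with a couple left out. *Osmr* was -0.0741 with RA in Cy3 alone, -0.0686 on slide row 1 and -0.0349 to 0.0566 with a couple left out. *Il6st* was -0.0416 with RA in Cy5 alone, *Cntf* -0.0556 on slide row 1 and *Lifr* 0.0096 on slide row 2. The cause was not tested. *Il6* and *Osmr* are limited by their signal over background. *Il6* has no value with dim probes left out. The labels give the dye orders no shared replicate numbers, so pairs could not be taken from them and were formed in all 24 ways.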
